A study of Oryza sativa with 18 samples.

Results

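The resistant rice line NIL-Bph6 was compared between 48 h and 6 h of feeding by the brown planthopper, a phloem-sucking insect, to see what had been added or lost after the early response. The comparison comprised 6 arrays of the 18 in the series, 3 of leaf sheaths taken after 48 h of infestation and 3 of leaf sheaths taken after 6 h, chosen by the titles of the samples. No array of uninfested plants entered it. NIL-Bph6 is labelled a near-isogenic line resistant to the planthopper, and Bph6 is its resistance locus. The 6 arrays of NIL-Bph6-RNAi leaf sheaths at 48 h and 6 h, a line in which RNA interference was used and which the labels call susceptible, are set beside it. The 3 NIL-Bph6 arrays at 0 h, from plants without insects, give the starting level. All plants were young, at the four-leaf stage in a growth chamber, and each group had 3 arrays labelled as biological replicates. No plants without insects were sampled at 6 h or 48 h, so infestation time, plant age and time of day cannot be told apart.

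Titles, source names and the design text name the 2 lines and the times 0, 6 and 48 h. The description and cultivar fields of the same samples name other lines and shorter times, and the groups here follow the titles. How many plants went into 1 array was not stated in the labels. The level of Bph6 itself was not analysed here. For 17 of the 18 arrays the closest other array belonged to the same group; the exception was NIL-Bph6 6 h replicate 3, which was closest to an array of NIL-Bph6 at 48 h. Array medians lay between 5.67 and 6.01 (log2 signal). The labelled tissue was checked by marker lists: the 20 light reaction genes averaged 11.65 to 11.96 across the 6 NIL-Bph6 arrays at 48 h and 6 h, against 6.27 to 6.64 for 8 pollen and panicle genes.

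Rice plants answer planthopper feeding by several routes. Jasmonate, a fatty acid hormone made by lipoxygenases and allene oxide synthase, releases transcription factors from JAZ repressors, and the JAZ genes are themselves induced by the hormone. Salicylate signalling through NPR1-type regulators, diterpenoid phytoalexins, chitinases and other pathogenesis-related proteins make up further layers. Leaf tissue under attack commonly lowers photosynthesis genes, and Bph6 itself is known to encode an exocyst-localized protein linked to secretion and cell wall reinforcement.

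Isocitrate lyase, a BURP-domain protein, a xylanase inhibitor and a homeodomain factor were among the genes that rose between 6 h and 48 h in NIL-Bph6. Among those that fell were GLN2 and Fd-GOGAT of ammonia assimilation, the triose phosphate translocator TPT and 1 of 11 JAZ repressors, JAZ5. Of 32732 probe sets tested, 276 passed an adjusted p of 0.05 in the limma fit (0.843%), 64 of them higher at 48 h (0.196%) and 212 lower (0.648%). The rises had a median of 1.19 on the log2 scale and ranged from 0.43 to 4.16, with 39 of at least 2-fold. The falls were smaller, with a median of -0.79 and a range of -3.15 to -0.42, and 50 were of at least 2-fold. Probe sets called lower were bright, with a median signal of 11.63 (log2) over the 18 arrays, against 9.88 for those that rose and 8.40 for all tested. Their median SE was 0.16, against 0.25 for all tested, in a fit with an intensity trend. Without that trend 3 falls were called, and the part of the fit in this brightness was not tested. The 64 probe sets that rose cover 53 genes, 12 of them with a name beyond a locus number, and the 212 that fell cover 160 genes, 18 of them named. In all 276 the 3 arrays at 48 h and the 3 at 6 h did not overlap, which was so for 7036 of all probe sets tested (21.5%), 3677 with 48 h higher (11.2%) and 3359 with 48 h lower (10.3%). For the gene lists below, each gene was taken once, by its brightest probe set: of 16404 genes 199 were called (1.21%), 48 up (0.293%) and 151 down (0.921%), and the median change was 0.06.

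The count changed when single arrays were left out, and the excess of falls was not kept in every fit. It came to 13 without 48 h replicate 1, 13 without 48 h replicate 2, 644 without 48 h replicate 3, 54 without 6 h replicate 1, 11 without 6 h replicate 2 and 8 without 6 h replicate 3. A measure of RNA integrity, the gap between the 3′ and the 5′ probe sets of the control genes, was 1.76, 2.08 and 2.11 at 48 h and 1.81, 2.29 and 2.01 at 6 h, and with it as a covariate 34 were called, 17 up and 17 down. Rises outnumbered falls without an intensity trend (8 up, 3 down), with only the compared groups fitted (16 and 4), without 6 h replicate 2 (10 and 1), without 48 h replicate 1 (9 and 4) and with a replicate block (18 and 14). The 28 named genes chosen for the main comparison kept their direction in each of these fits, but 8 of them stayed called with the covariate, 8 with the block, 3 without the trend and 3 with only the compared groups. Of the same 28 genes, 3 stayed called without 48 h replicate 1 and 3 without 48 h replicate 2, 2 without 6 h replicate 2 and 2 without 6 h replicate 3, 11 without 6 h replicate 1 and 27 without 48 h replicate 3.

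ICL (LOC4343441) is isocitrate lyase of the glyoxylate cycle, which turns the products of lipid breakdown into sugar precursors. Its log2 signal was 8.23, 8.13 and 8.55 at 48 h, against 4.99, 3.19 and 4.26 at 6 h. The groups did not overlap, and the fitted change was 4.16 ± 0.53 (SE) with an adjusted p of 0.00574. All 3 arrays at 6 h lay below 5.776, the level used as a filter on low signals, so ICL was kept only through groups where it is higher, and the size of its change against a low 6 h signal is not firm. ICL stayed called without each of the 6 arrays in turn, but those fits kept it through the same groups, so this is no separate support. With a stricter filter on low values it was not tested. At 0 h its signal was 4.17, 4.69 and 4.29, close to the level at 6 h. NIL-Bph6-RNAi showed a change of 4.09 (adjusted p = 0.0011), and the difference between the lines was 0.07 (adjusted p = 0.984).

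BURP16 (LOC4348595), a BURP-domain protein, had 10.90, 11.41 and 12.18 at 48 h, against 8.61, 7.499 and 8.89 at 6 h (log2 signal). Its change was 3.16 ± 0.50 with an adjusted p of 0.02. RIXI (LOC4351194), an inhibitor of the xylanases that microbes use on plant walls, had 9.88, 8.92 and 8.81 at 48 h and 6.53, 6.55 and 5.45 at 6 h. All 3 arrays at 48 h lay more than 2 log2 units above the highest at 6 h, and the change was 3.03 ± 0.53 (adjusted p = 0.0309). GER2 (LOC4344839), a germin-like protein of the extracellular matrix, was tight within each time, at 12.94, 13.24 and 13.14 at 48 h and 11.66, 11.69 and 11.74 at 6 h. It rose by 1.41 ± 0.27 (adjusted p = 0.0375). RIXI and GER2 were the only members called among the 30 tested genes of the pathogenesis-related list, where 0.293% of all genes were called up. In NIL-Bph6-RNAi, BURP16, RIXI and GER2 changed by 2.80, 2.31 and 1.40, all called.

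Several regulators were among the rises. HOX12 (LOC4331956), a homeodomain-leucine zipper transcription factor, had 9.66, 10.01 and 10.14 at 48 h, against 7.21, 8.37 and 7.23 at 6 h, a change of 2.33 ± 0.34 (adjusted p = 0.0112). Its relative HOX4 (LOC4347333) had 11.29, 11.55 and 11.32 at 48 h, against 10.67, 10.36 and 10.64 at 6 h, a change of 0.83 ± 0.13 (adjusted p = 0.02). PP2C32 (LOC4332509), a protein phosphatase of the 2C class, had 11.21, 11.75 and 11.45 at 48 h and 10.53, 9.68 and 9.94 at 6 h, and rose by 1.42 ± 0.25 (adjusted p = 0.0313). KRP5 (LOC4331554), an inhibitor of cyclin-dependent kinases that brakes the cell cycle, had 9.61, 9.58 and 9.46 at 48 h and 8.91, 8.55 and 8.75 at 6 h, and rose by 0.81 ± 0.15 (adjusted p = 0.0337). The 3 arrays at 48 h were within 0.2 of each other for KRP5. C3H35 (LOC4338037), a CCCH zinc finger protein, rose by 1.20 ± 0.27 (adjusted p = 0.0489), and its 48 h replicate 3, at 8.69, lay nearer the 6 h arrays than the other two did.

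The remaining 3 named rises were Nrx1-1 (LOC4333075), a nucleoredoxin, the small heat shock protein HSP17.9A (LOC4332357) and Alpha-ETF (LOC4334698), the alpha subunit of the electron transfer flavoprotein that feeds electrons from amino acid and fatty acid breakdown into mitochondrial respiration. They rose by 0.99 ± 0.22, 0.83 ± 0.13 and 0.54 ± 0.11 (adjusted p 0.0489, 0.02 and 0.0399). HSP17.9A was the only member called of the 62 heat shock and chaperone genes tested, where 0.293% of all genes were called up. Among genes with no name, chosen here after their values were seen, LOC4330612 had 12.46, 13.04 and 12.26 at 48 h, against 9.03, 9.79 and 9.83 at 6 h, a change of 3.04 ± 0.30 (adjusted p = 0.000338). LOC4334644 rose by 3.60 ± 0.77 (adjusted p = 0.0438). The plot of signals for the 12 named rises shows each array of both lines.

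**Figure D1:**
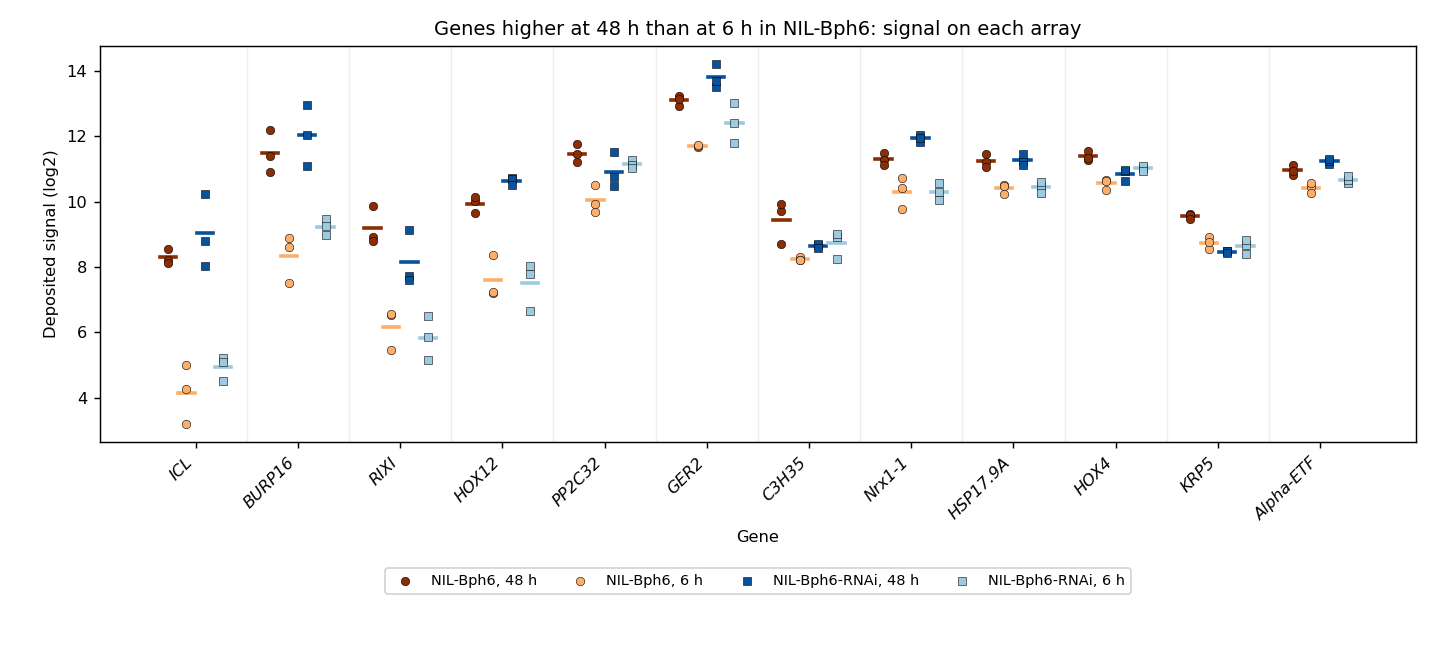
Deposited log2 signal (y axis) of the 12 named genes called higher at 48 h than at 6 h in NIL-Bph6 (x axis), with 1 point an array and a bar at the mean of 3 arrays; circles are NIL-Bph6, squares NIL-Bph6-RNAi, dark 48 h and light 6 h. ICL lies at 8.13 to 8.55 at 48 h against 3.19 to 4.99 at 6 h in NIL-Bph6, with its 6 h arrays below the filter level of 5.776, and the dark and light squares overlap or are turned round for PP2C32, C3H35, HOX4 and KRP5.

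Both enzymes of the chloroplast ammonia cycle were among the falls in NIL-Bph6. GLN2 (LOC4337272), the chloroplast glutamine synthetase that recaptures ammonia from photorespiration, had 12.50, 12.50 and 13.15 at 48 h, against 13.55, 13.76 and 13.73 at 6 h. The change was -0.96 ± 0.21 (adjusted p = 0.048), and 48 h replicate 3 was nearest to the 6 h arrays. Fd-GOGAT (LOC4344164), the ferredoxin-dependent glutamate synthase that works with it, had 12.93, 12.82 and 13.15 at 48 h, against 13.48, 13.56 and 13.46 at 6 h, a change of -0.53 ± 0.10 (adjusted p = 0.0375). These were the only 2 members called of 35 nitrogen and amino acid genes, whose median change was 0.10. Over all genes 0.921% were called down. The cytosolic glutamine synthetases GLN1-1 (LOC4330649) and GLN1-2 (LOC4332108) changed by 0.07 ± 0.15 and 0.18 ± 0.20, neither called.

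FBPase and TPT handle the sugar phosphates made by photosynthesis. FBPase (LOC4332364), a fructose bisphosphatase, had 11.91, 11.97 and 12.30 at 48 h, against 12.66, 12.99 and 12.87 at 6 h, and fell by 0.78 on the log2 scale (SE 0.14, adjusted p = 0.0313). TPT (LOC4326365), the triose phosphate translocator that exports fixed carbon from the chloroplast, had 13.32, 13.43 and 13.64 at 48 h, against 13.89, 14.05 and 13.96 at 6 h, and fell by 0.50 on the log2 scale (SE 0.11, adjusted p = 0.0438). In light harvesting and electron flow, GOS5 (LOC4339593), also called PSAH, a subunit of photosystem I, had 13.53, 13.46 and 13.75 at 48 h, against 13.98, 14.08 and 14.00 at 6 h. Its change of -0.44 ± 0.09 (adjusted p = 0.0438) was small. The 2 times did not overlap, which held for every probe set called. The chloroplast peroxiredoxin bas1 (LOC4329578), which removes peroxides, had 13.11, 13.04 and 13.50 at 48 h and 13.92, 13.96 and 13.89 at 6 h, a change of -0.71 ± 0.14 (adjusted p = 0.0375). SECY (LOC4345097), a protein translocation channel subunit, changed by -0.66 ± 0.14 (adjusted p = 0.04). GME-1 (LOC4348636), an epimerase on the route to ascorbate, changed by -0.74 ± 0.17 (adjusted p = 0.0489).

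CASPL2C2 (LOC4328486), a CASP-like membrane protein, had the largest fall of the named genes, with 6.98, 6.93 and 7.78 at 48 h against 8.49, 8.96 and 9.17 at 6 h, a change of -1.65 ± 0.28 (adjusted p = 0.0309). GRXC15 (LOC4352426), a glutaredoxin, had nearly the same signal in the 3 arrays at 48 h, 10.24, 10.29 and 10.27, against 11.22, 11.42 and 11.18 at 6 h. Its change of -1.005 ± 0.14 had an adjusted p of 0.011. TPC1 (LOC4325272), a cation channel of the vacuole, and VIT1 (LOC4336075), a vacuolar iron transporter, each fell by 0.61 on the log2 scale (adjusted p 0.0396 and 0.0489). AL1 (LOC4333151) and CEST (LOC4327627) changed by -0.85 ± 0.18 and -0.77 ± 0.17 (adjusted p 0.0438 for both). The 18 named falls also hold FTSH1 (LOC4342113), a chloroplast protease that maintains photosystem II, and PPE (LOC4331761), which were not among the largest and are named, after their values were seen, only to complete the count, with changes of -0.45 ± 0.09 and -0.42 ± 0.09. Among genes with no name, also chosen after their values were seen, LOC4331470 and LOC4336447 changed by -1.47 ± 0.20 and -1.45 ± 0.28 (adjusted p 0.0074 and 0.0375).

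**Figure D2:**
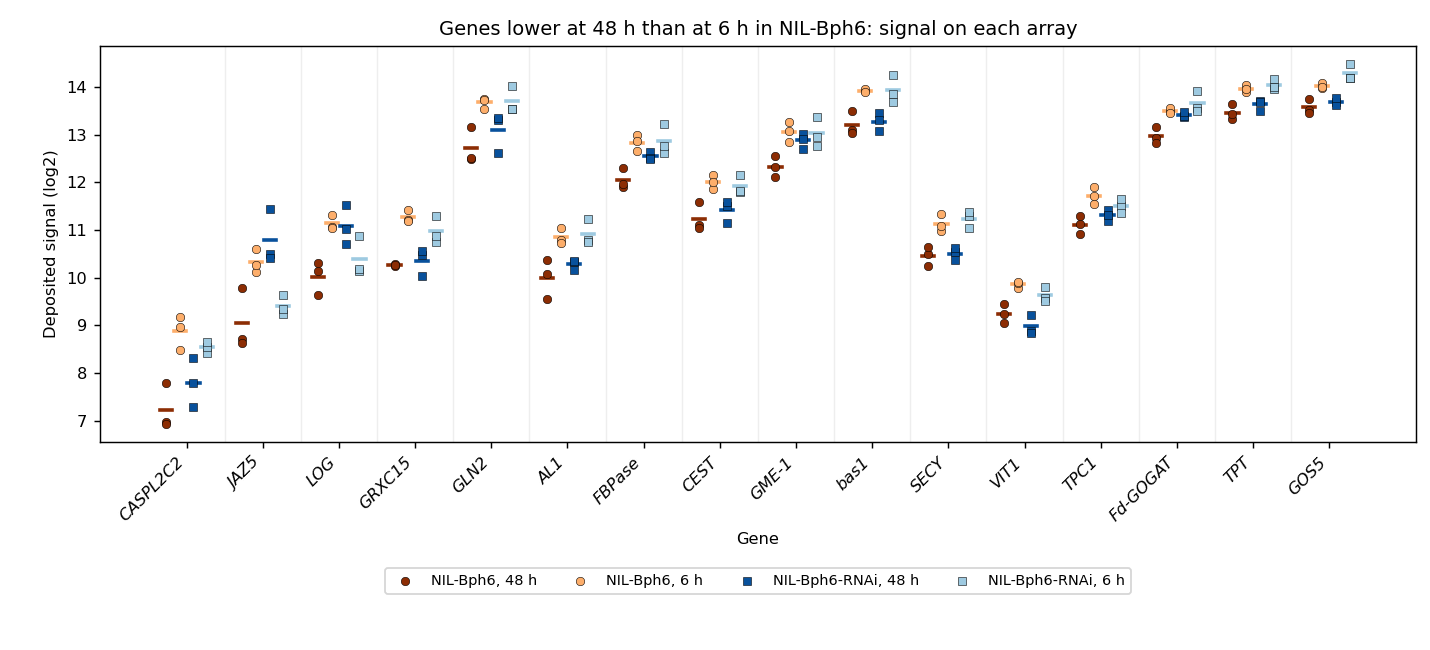
Deposited log2 signal (y axis) of the 16 named genes called lower at 48 h than at 6 h in NIL-Bph6 and chosen by the naming rule (x axis), 1 point an array and a bar at the mean of 3 arrays; circles are NIL-Bph6, squares NIL-Bph6-RNAi, dark 48 h and light 6 h. Dark circles lie below light circles for each gene, and for JAZ5 and LOG the dark squares of NIL-Bph6-RNAi lie mostly above the light ones.

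Most genes of the 2 photosynthesis lists had lower means at 48 h in NIL-Bph6, and 1 in each list passed the test. Over all genes 0.921% were called down, and 10.3% of all probe sets did not overlap with 48 h lower. Of 20 light reaction genes tested, 1 was called down (GOS5) and none up, 17 changed by less than 0, 9 did not overlap with 48 h lower, and the median change was -0.28. Of 23 carbon fixation and chlorophyll genes, 1 was called down (TPT) and none up, 18 changed by less than 0, 11 did not overlap with 48 h lower, and the median was -0.23. PSB28 (LOC4326537), an assembly factor of photosystem II, had 10.20, 10.43 and 11.06 at 48 h and 11.46, 11.76 and 11.76 at 6 h, with a change of -1.10 ± 0.28 that missed the threshold (adjusted p = 0.0742). RCAA1 (LOC4351224), Rubisco activase, had 12.63, 12.82 and 13.41 at 48 h and 13.85, 14.15 and 13.98 at 6 h, with a change of -1.04 ± 0.33 (adjusted p = 0.148). CAB2R (LOC4324599), a chlorophyll-binding antenna protein close to the top of the signal range, had 14.999, 14.95 and 14.94 at 48 h and 15.05, 15.08 and 14.90 at 6 h. With each of the 6 arrays left out in turn the medians of both lists stayed below 0, between -0.34 and -0.23 for light reactions and between -0.32 and -0.20 for carbon fixation. In NIL-Bph6-RNAi the list medians were -0.27 and -0.28, with 5 of 20 and 7 of 23 genes called down and none up. Over all genes 6.04% were called down in that line. GOS5 and TPT changed by -0.60 and -0.41 there, both called. Of the 2 lists, 1 carbon fixation gene had a called difference between the lines, higher in NIL-Bph6. In these bulk samples, fewer cells of a type and less RNA per cell cannot be told apart.

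Of 25 ribosomal genes 23 changed by more than 0, with a median of 0.11 and no call. Of the 20 reference genes 17 were above 0, with a median of 0.10, against 0.06 for all genes. Without overlap, 11 ribosomal genes were higher at 48 h and 2 lower, against 4 and 1 of the reference genes. Over all probe sets the shares were 11.2% and 10.3%. CL27 (LOC4327257) and CL18 (LOC4334651), the ribosomal members below 0 and proteins of the chloroplast ribosome, had changes of -0.84 ± 0.19 and -0.82 ± 0.25, neither called (adjusted p 0.0533 and 0.141). Of 7 circadian clock genes none was called and the median change was -0.04. The part of time of day in these values was not tested.

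Of the defense lists, few had a called gene. In 21 of the 33 lists limma called none. Where 1.21% of all genes were called, a short list without a call says little about its members. In these 21 lists, selected for having no call, 58 of the 504 genes had an unadjusted p under 0.05. The share over everything tested was 12.8%, counted by probe set and not by gene. None was called among 6 WRKY, 19 salicylate, 17 phytoalexin, 31 chitin and immune receptor, 33 phenylpropanoid, 85 cell wall, 15 exocyst and secretion, 11 ethylene, 11 cold response, 39 abscisic acid and dehydration, 56 auxin and 58 sugar transport and starch genes. Nor was any called among 33 growth-regulating and meristem, 19 vascular, 7 epidermis and wax, 11 root, 8 pollen and panicle, 18 phosphate starvation and 20 reference genes. The WRKY factors, regulators of defense genes, all 6 changed by more than 0 with a median of 0.25, which was 0.01 without 6 h replicate 2 and 0.40 without 6 h replicate 3. Among the pathogenesis-related genes the median was 0.20, with 2 of 30 called up. The other calls were 1 of 83 calcium signalling genes (TPC1), 1 of 28 iron genes (VIT1), 1 of 42 peroxidase and glutathione transferase genes (GRXC15) and 1 of 49 gibberellin, cytokinin and brassinosteroid genes (LOG), all down, and 1 of 17 chlorophyll breakdown and senescence genes (ICL) and 1 of 103 histone and cell cycle genes (KRP5), both up.

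The phytoalexin list, enzymes of diterpenoid antibiotics such as momilactones and phytocassanes, had the highest median of the 33 lists, 0.52, with no call. Its mean over 17 genes was 8.84, 9.68 and 8.63 at 48 h and 9.61, 7.40 and 9.26 at 6 h, so that 6 h replicate 2 stood below the other 5. CPS4 (LOC4335090), the copalyl diphosphate synthase of the momilactone branch, had 9.29, 9.80 and 8.60 at 48 h and 9.63, 5.88 and 9.09 at 6 h. The list median was -0.20 without 6 h replicate 2, 0.09 without 48 h replicate 2 and 1.02 without 6 h replicate 1. Genes with large changes that missed the threshold, picked after their values were seen, as were PSB28, RCAA1 and CAB2R above, were the laccase LAC20 (LOC4351006), at -2.55 ± 0.64 (adjusted p = 0.0682), the coumarate ligase 4CL.2 (LOC4330407), at -2.05 ± 0.47 (adjusted p = 0.0523), and the calmodulin-like CML31 (LOC4325408), at 1.52 ± 0.37 (adjusted p = 0.0643).

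**Figure D3:**
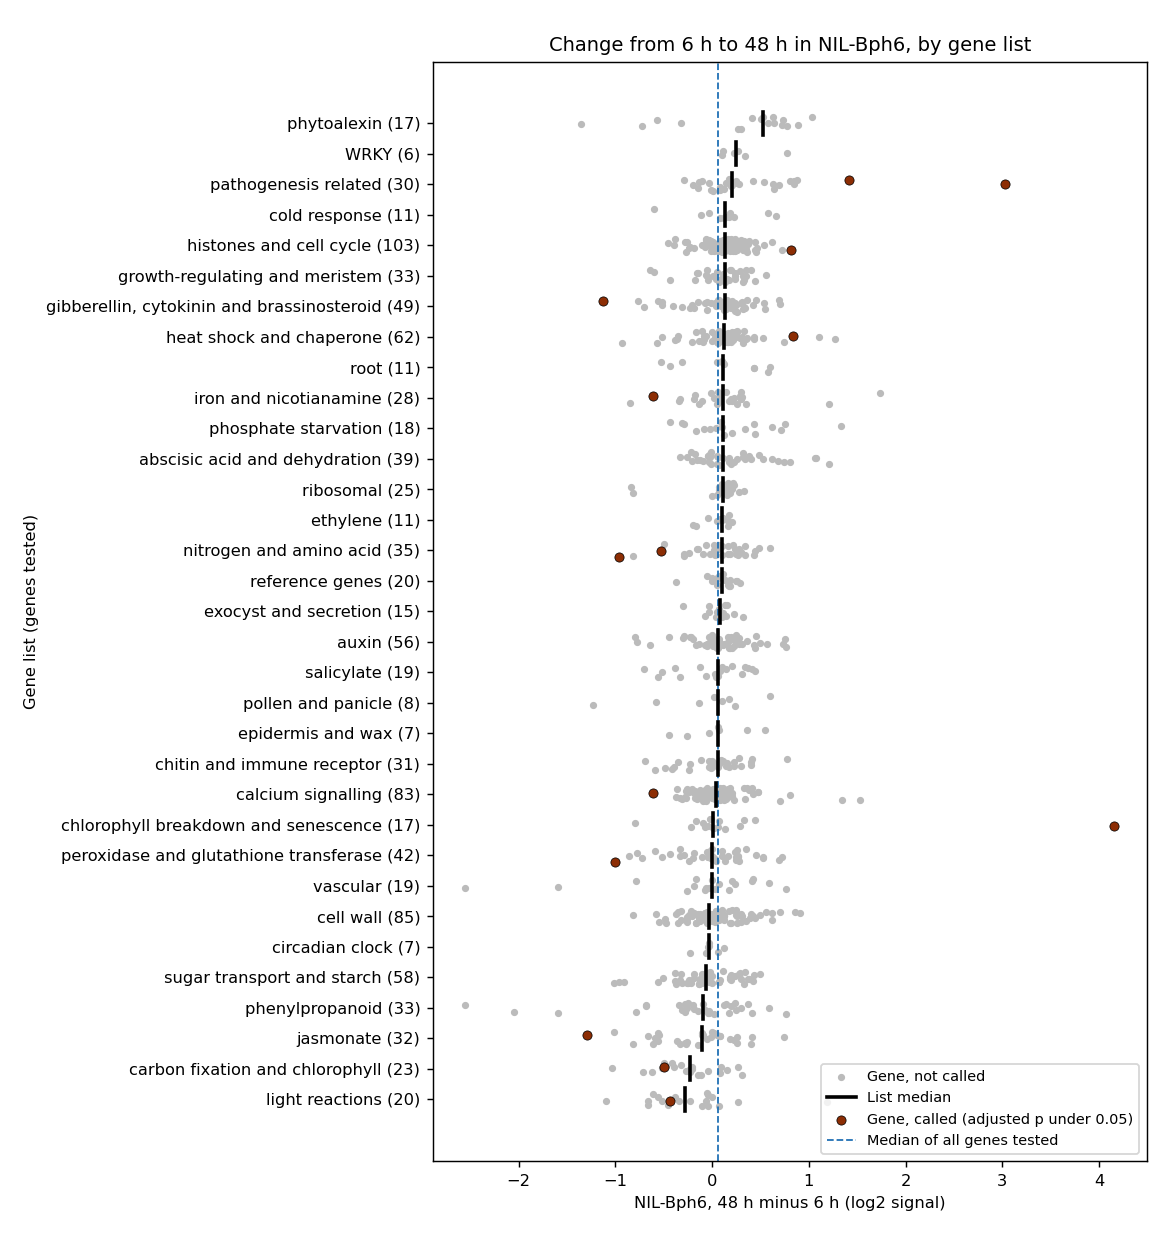
Change from 6 h to 48 h in NIL-Bph6 (x axis, log2 signal, 48 h minus 6 h) for each gene of 33 lists (y axis, with the number of genes tested), with called genes as dark points, others grey, a black bar at each list's median and a dashed line at the median of all genes tested, 0.06. Dark points are few, ICL and RIXI stand farthest right, and the medians run from 0.52 for phytoalexins to -0.28 for light reactions.

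Of 32 jasmonate genes tested in NIL-Bph6, 1 was called, downward (0.921% of all genes were called down), and 20 changed by less than 0. JAZ5 (LOC4335698) had 8.71, 9.77 and 8.64 at 48 h, against 10.12, 10.27 and 10.61 at 6 h, a change of -1.29 ± 0.29 with an adjusted p of 0.0499. Of 11 JAZ repressors 10 changed by less than 0, with a median of -0.56, and 4 did not overlap with 48 h lower (10.3% of all probe sets). JAZ6 (LOC4333065) had 11.52, 12.69 and 12.57 at 48 h and 13.07, 13.08 and 13.09 at 6 h (-0.82 ± 0.22, adjusted p = 0.0916). JAZ9 (LOC4331832) had 9.53, 12.71 and 12.12 at 48 h and 12.43, 11.35 and 12.24 at 6 h (-0.55 ± 0.60). In 9 of the 11 the lowest array at 48 h was replicate 1, and without it 8 of 11 were below 0. The list as a whole averaged 10.67, 11.56 and 11.06 at 48 h and 11.41, 11.02 and 11.41 at 6 h, with a median change of -0.11, which was 0.02 without 48 h replicate 1. Of the genes that make the hormone, AOS (LOC4332121), allene oxide synthase, changed by 0.22 ± 0.19. The chloroplast lipoxygenase CM-LOX1 (LOC4345993) changed by -0.56 ± 0.46, and neither was called. The receptor COI1 (LOC4324818) had 11.91, 11.90 and 11.66 at 48 h and 11.43, 11.47 and 11.33 at 6 h (0.41 ± 0.12, adjusted p = 0.113).

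In NIL-Bph6-RNAi far more probe sets were called between the same times, 2716 (8.3%), 1253 up (3.83%) and 1463 down (4.47%). Counted by gene, 5.19% were called up and 6.04% down there. That count was 769 without its 48 h replicate 3, 742 without its 6 h replicate 2, 1108 without its 6 h replicate 1 and 538 when only the 2 groups compared were fitted. The comparisons in the 2 lines share no array. Of the 64 rises in NIL-Bph6, 35 were also called up in NIL-Bph6-RNAi, which is 54.7% of the rises in NIL-Bph6 and 2.79% of those in NIL-Bph6-RNAi. Of the 212 falls in NIL-Bph6, 113 were also called down in NIL-Bph6-RNAi, which is 53.3% of the falls in NIL-Bph6 and 7.72% of those in the other line. The 64 rises had a median of 1.19 in NIL-Bph6 and 0.53 in the RNAi line, and the 212 falls had -0.79 in NIL-Bph6 and -0.56 in the RNAi line. Both sets were chosen by their calls in NIL-Bph6, which favours larger medians in that line. The difference between the lines was called for 2 of the 64 and 7 of the 212. Across all 32732 the changes in the 2 lines correlated at 0.169, a value over probe sets, which are not independent replicates. Histone and cell cycle genes had a median of 0.14 with 1 call up in NIL-Bph6, and -0.35 with 17 calls down in NIL-Bph6-RNAi, but no member had a called difference between the lines.

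The test of the difference itself, the change in NIL-Bph6 minus the change in NIL-Bph6-RNAi, called 136 probe sets (0.415%), 51 higher in NIL-Bph6 (0.156%) and 85 lower (0.26%), or 34 and 92 after each array was centred on its median. The balance turned round with array weights (620 higher, 419 lower) and without RNAi-line 6 h replicate 3 (701 and 335), 48 h replicate 2 (107 and 88) or 48 h replicate 1 (17 and 11). Of the 85, 82 were called in NIL-Bph6-RNAi and 7 in NIL-Bph6, and the median change was -0.47 in NIL-Bph6, against 1.07 in the RNAi line. Of the 51, 49 were called in NIL-Bph6-RNAi and 2 in NIL-Bph6, and the median change was 0.44 in NIL-Bph6, against -1.35 in the RNAi line. Both sets were chosen by this difference, so their medians in the 2 lines lie apart by construction. This count also changed when single arrays were left out. For NIL-Bph6, leaving out 48 h replicate 1 or 6 h replicate 3 gave 0 calls by limma (3434 and 3316 at an unadjusted p of 0.05), leaving out 48 h replicate 3 gave 3, and leaving out 6 h replicate 1 or 2 gave 43 or 40. For the RNAi line, leaving out 6 h replicate 1 gave 0 (3281 at an unadjusted p of 0.05), 6 h replicate 2 gave 5, 6 h replicate 3 gave 1036, 48 h replicate 1 gave 28 and 48 h replicate 3 gave 84.

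The jasmonate list held 5 of the differences, all lower in NIL-Bph6 (0.396% of all genes were called in that direction). JAZ5 had 11.45, 10.49 and 10.42 at 48 h in NIL-Bph6-RNAi, against 9.24, 9.34 and 9.63 at 6 h, a change of 1.38 (adjusted p = 0.0116). Its change ran in opposite directions in the lines, and the difference was -2.68 ± 0.41 (adjusted p = 0.0251). CM-LOX1 had 8.03, 9.63 and 8.49 at 48 h and 9.83, 8.28 and 9.72 at 6 h in NIL-Bph6. In NIL-Bph6-RNAi it had 10.86, 9.85 and 10.19 at 48 h and 7.73, 7.31 and 8.12 at 6 h. The change was not called in NIL-Bph6 (adjusted p = 0.689), was 2.58 in NIL-Bph6-RNAi (adjusted p = 0.00569), and the difference was -3.14 ± 0.65 (adjusted p = 0.0462). JAMYB (LOC4351131), a MYB factor induced by jasmonate, had a difference of -2.92 ± 0.47 (adjusted p = 0.0283). JAZ6 and AOS (LOC4332121) made up the 5, with differences of -1.63 and -1.38 (adjusted p = 0.0376 for both). The second AOS gene (LOC4334233) had a difference of -0.52, not called. All 11 JAZ genes changed by more than 0 in NIL-Bph6-RNAi, with a median of 0.72.

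**Figure D4:**
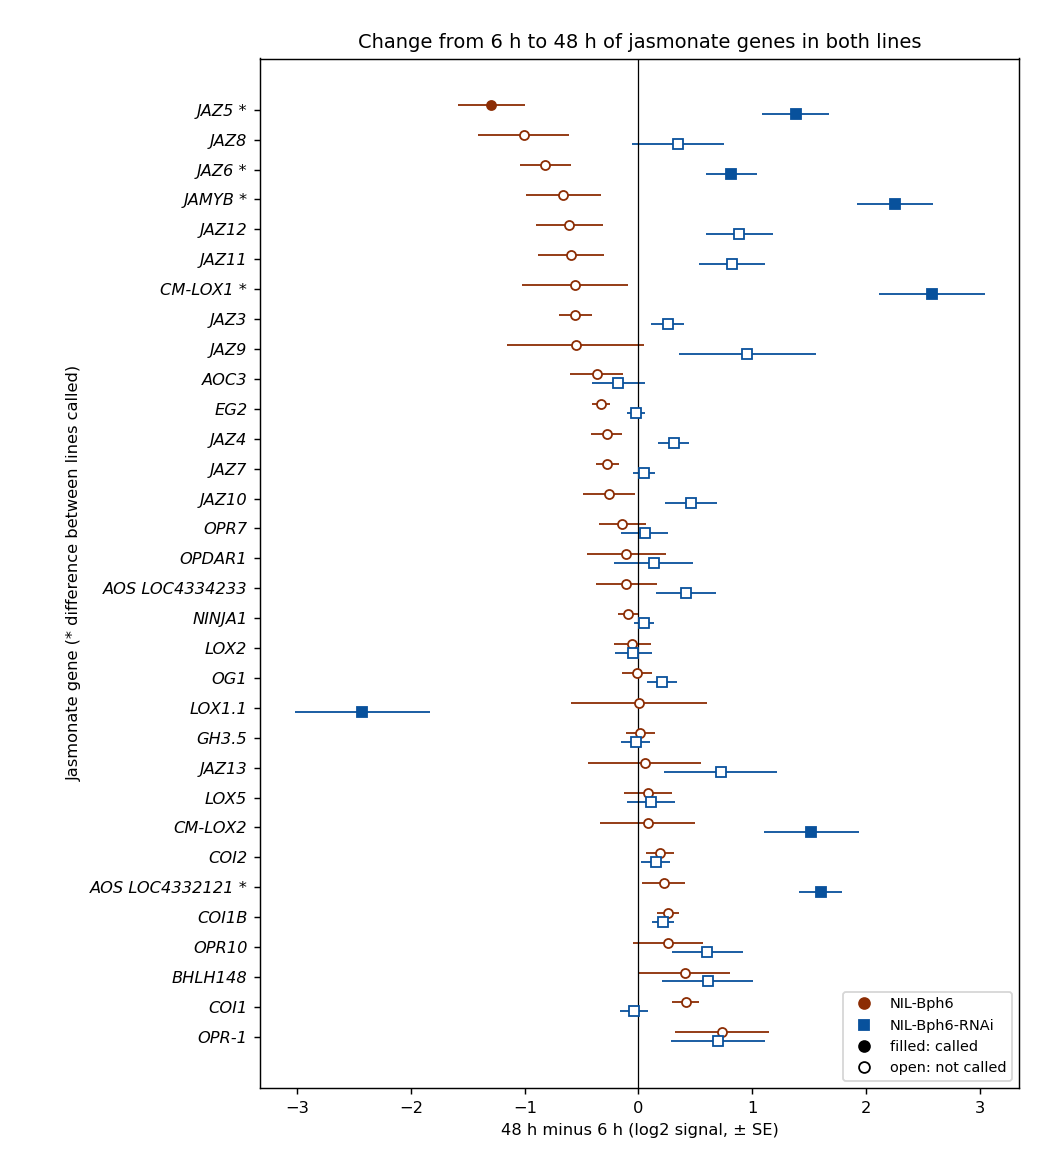
Change from 6 h to 48 h (x axis, log2 signal, 48 h minus 6 h, with SE) of the 32 jasmonate genes tested (y axis, ordered by the change in NIL-Bph6), with circles for NIL-Bph6, squares for NIL-Bph6-RNAi, filled where the change was called and an asterisk where the difference between the lines was called. JAZ5 is the only filled circle, at -1.29, and its square lies at 1.38.

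The other genes named here for a difference between the lines were regulators and enzymes, but the called differences were not limited to these kinds. The phosphate transporter PHT1-1 (LOC4331635), picked after its values were seen, had a called difference of -1.17 (adjusted p = 0.0294). NH3 (LOC4333666), a homolog of the salicylate regulator NPR1, had 10.29, 10.63 and 10.73 at 48 h and 10.91, 11.17 and 11.13 at 6 h in NIL-Bph6, with a change of -0.52 (adjusted p = 0.182). In NIL-Bph6-RNAi it had 11.60, 11.56 and 11.39 at 48 h and 10.14, 9.88 and 10.63 at 6 h, a change of 1.30 (adjusted p = 0.0011). The difference of -1.82 ± 0.25 (adjusted p = 0.0155) was called for all 3 of its probe sets, at -2.64, -1.82 and -1.81. LOG (LOC4324445), an enzyme that releases active cytokinin, had 9.64, 10.30 and 10.13 at 48 h and 11.07, 11.05 and 11.32 at 6 h in NIL-Bph6, a change of -1.13 ± 0.23 (adjusted p = 0.0396). Its change in NIL-Bph6-RNAi was 0.69 (adjusted p = 0.0736) and the difference was -1.82 ± 0.33 (adjusted p = 0.0294). HOX4 changed by 0.83 in NIL-Bph6 and by -0.17 in the RNAi line, not called there (adjusted p = 0.474), and had a difference of 0.999 ± 0.18 (adjusted p = 0.0318). BGLU30 (LOC4347441), a beta-glucosidase, had 9.83, 11.07 and 10.14 at 48 h and 10.66, 10.15 and 10.74 at 6 h in NIL-Bph6. In NIL-Bph6-RNAi it had 9.29, 8.14 and 7.92 at 48 h and 11.14, 11.01 and 10.74 at 6 h, and the difference was 2.34 ± 0.48 (adjusted p = 0.044). KRP5 and PP2C32 came close, with differences of 0.99 (adjusted p = 0.0502) and 1.65 (adjusted p = 0.0539).

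Set beside the level at 0 h, the named genes differed in when they left it. The comparisons with 0 h share arrays with the comparison of 48 h and 6 h, so they are given gene by gene only. Genes called between 6 h and 48 h were chosen by those same arrays. Their adjusted p-values against 0 h are therefore no separate support for a peak, a dip or a return to the 0 h level. At 6 h 5.12% of all probe sets were called against 0 h (3.52% up, 1.6% down), and at 48 h 15.7% (8.18% up, 7.48% down). HOX12 stepped up at each time, with 5.97, 6.39 and 6.15 at 0 h, 7.21, 8.37 and 7.23 at 6 h and 9.66, 10.01 and 10.14 at 48 h, and was 1.44 above 0 h at 6 h (adjusted p = 0.021) and 3.77 above it at 48 h. KRP5 had 8.20, 8.001 and 8.42 at 0 h, and was 0.53 above that at 6 h (adjusted p = 0.0467) and 1.34 above it at 48 h. HOX4 did otherwise, with 11.49, 11.23 and 11.47 at 0 h. It was lower by 0.84 at 6 h (adjusted p = 0.0015), and at 48 h it differed from 0 h by -0.01.

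JAZ5, GRXC15 and LOG had their highest means at 6 h. JAZ5 had 8.99, 9.09 and 8.97 at 0 h, was 1.32 above that at 6 h (adjusted p = 0.0156) and differed from it by 0.02 at 48 h (adjusted p = 0.972). GRXC15 had 10.51, 10.56 and 10.55 at 0 h, was 0.73 above that at 6 h (adjusted p = 0.00732) and differed by -0.27 at 48 h (adjusted p = 0.232). LOG had 10.32, 10.45 and 10.39 at 0 h and was 0.76 above that at 6 h, which was not called (adjusted p = 0.0693). Some other jasmonate genes had means above the 0 h level at both times. The median change of the list from 0 h was 0.42 at 6 h and 0.41 at 48 h, smaller than in the examples that follow. JAZ9 was 3.36 above 0 h at 6 h (adjusted p = 0.0042) and 2.81 above it at 48 h (adjusted p = 0.0045), and the bHLH factor BHLH148 (LOC4334060) was 3.16 and 3.57 above it. Fd-GOGAT, FBPase and TPT had lower means at each later time. Fd-GOGAT had 13.82, 13.85 and 13.84 at 0 h, 13.48, 13.56 and 13.46 at 6 h and 12.93, 12.82 and 13.15 at 48 h. FBPase and TPT differed from 0 h by -0.18 and -0.07 at 6 h, neither called, and by -0.95 and -0.57 at 48 h, both called.

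**Figure D5:**
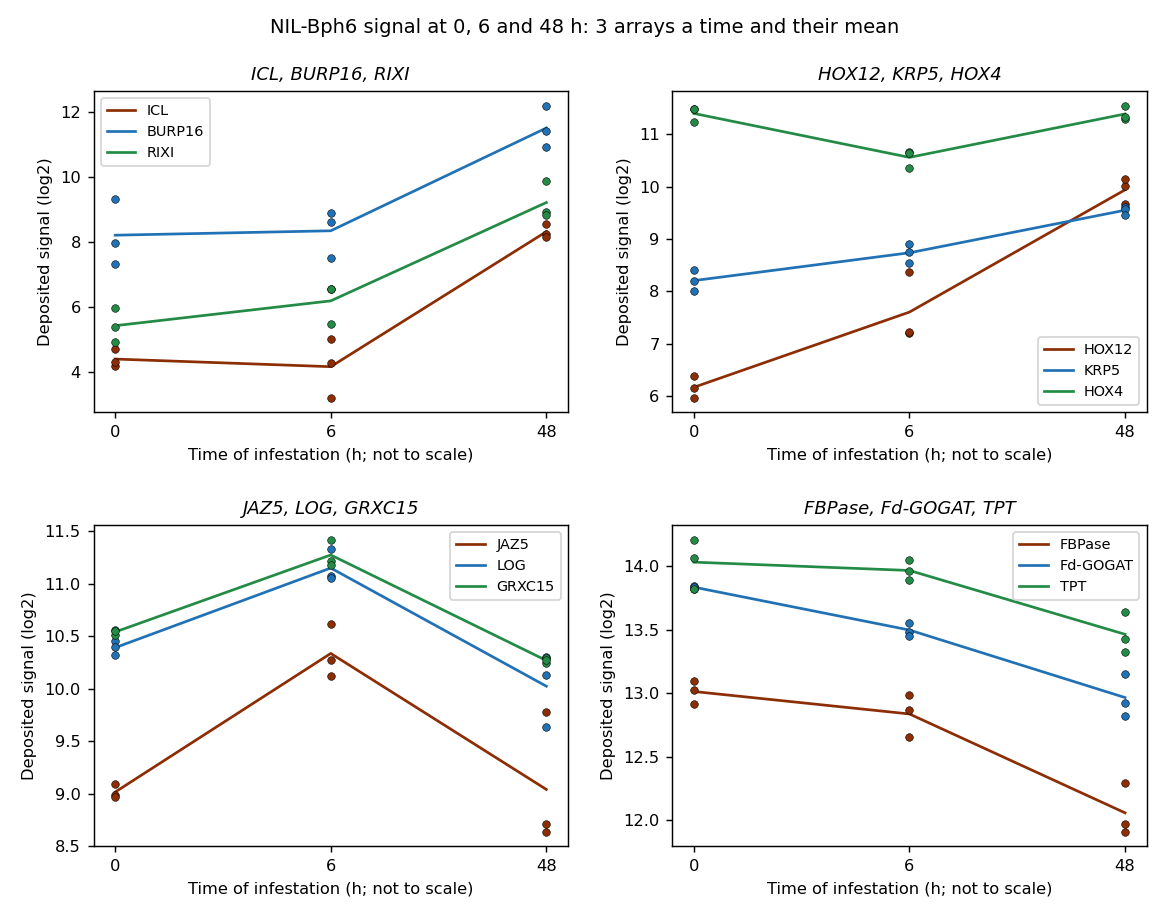
Deposited log2 signal (y axis) in NIL-Bph6 at 0, 6 and 48 h of infestation (x axis, not to scale), with 1 point an array and lines through the means of 3 arrays. ICL, BURP16 and RIXI leave the 0 h level mainly at 48 h, HOX12 and KRP5 step up, HOX4 dips at 6 h, JAZ5, LOG and GRXC15 peak at 6 h, and FBPase, Fd-GOGAT and TPT decline.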

How the data were processed

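RNA from rice leaf sheaths was hybridized to 18 Affymetrix rice arrays. The authors' deposited values are log2 signals from MAS5, per the submitters' processing notes; the labels state no further settings. The linear 2% trimmed mean of every array was 500.067 to 500.079, so the arrays had been scaled to 1 level, and the number of arrays limits precision. The deposited values were used unchanged.

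The 123 control probe sets were left out, and 32732 of 57258 others were kept, those with at least 3 arrays above the median of 5.776. limma 3.58.1 in R 4.3.3 was fitted with 1 mean per group over all 18 arrays and an intensity trend; p-values were adjusted by Benjamini-Hochberg over all probe sets kept. A call is an adjusted p under 0.05. Each SE is limma's moderated standard error, with n = 3 arrays in each group. The fit was tested on simulated data first.

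Of 57381 probe sets, 22436 had 1 gene in the platform annotation, 95 several and 34850 none, and all 17905 genes matched the RefSeq table, 2452 with a name. Probe sets of gene families may share signal, which was not tested.

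Named genes are the 12 largest rises and 12 largest falls among called, named genes without overlap between the times, up to 3 called members of each of 33 lists, and 6 genes from the difference between lines. Genes called in no comparison are given by values only. The members and lists were chosen with earlier results of these data known. Alternatives were quantile normalization, median centring, other filters, a signal floor, no intensity trend, only the groups compared, a replicate block, array weights, a 2-fold minimum, an RNA quality covariate over 7 pairs of control probe sets, and each array left out. Promoter motifs were not analysed here.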

Additional observations from a re-analysis of the deposited data

Results flagged for a closer look

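Counted by gene, limma's test of the difference between the lines called 98 (0.597%). Only 7 of the genes called in that test are listed here (NIL-Bph6 change minus NIL-Bph6-RNAi change, log2 scale). The change was lower in NIL-Bph6 for CM-LOX1 (LOC4345993) by a difference of -3.14, JAMYB (LOC4351131) of -2.92 and JAZ5 (LOC4335698) of -2.68. It was also lower for LOG (LOC4324445) and NH3 (LOC4333666), by -1.82 each. It was higher for BGLU30 (LOC4347441), at 2.34, and HOX4 (LOC4347333), at 0.999. Among the 22 alternatives, NH3 stayed called in 18, JAZ5 and JAMYB in 15, LOG in 12, CM-LOX1 in 8 and BGLU30 in 6, and none of these 6 turned its direction; HOX4 was not followed through the alternatives for this difference.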

How the results depend on the processing

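Counts of called probe sets depended on the setting. For NIL-Bph6 (276), 34 were called with the 3′ to 5′ covariate, 746 with array weights, 75 without a filter, 563 with the stricter filter, 11 without an intensity trend, 20 with only the compared groups fitted and 89 at a 2-fold minimum. Leaving out 1 array gave 8 to 644. For NIL-Bph6-RNAi (2716), 538 were called with only its groups fitted and 1241 at a 2-fold minimum, and 742 to 3486 with 1 array left out. For the difference (136), 64 were called with the covariate, 1039 with array weights, 90 without a filter, 9 without a trend, 6 with only the compared groups, and 0 to 1036 with 1 array left out; at 0, limma still had 3434, 3316 and 3281 at an unadjusted p of 0.05. The cause of these shifts was not tested, apart from the smaller number of tests or arrays that some settings have by construction. Under median centring, the floor and quantile normalization the 3 counts stayed within 1.5 times the values reported. None of the 28 genes named for NIL-Bph6 and the 6 for the difference reversed in any alternative. ICL was called in all 15 that gave it a value, and the stricter filter left it out. The medians of 13 of the 33 lists took the other sign in at least 1 of 17 alternatives, among them phytoalexin, jasmonate, and pollen and panicle (0.06, which was -0.14 under the stricter filter and -0.09 without NIL-Bph6 48 h replicate 2).

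With the replicate number as a block, 32 probe sets were called in NIL-Bph6, 2865 in NIL-Bph6-RNAi and 167 for the difference. The titles do not say whether same-numbered arrays belong together. Deviations of same-numbered arrays correlated at -0.02, -0.20 and 0.00 in NIL-Bph6 and -0.03, 0.01 and 0.09 in NIL-Bph6-RNAi. Those of differently numbered arrays ran from -0.12 to 0.12 in NIL-Bph6 and from -0.10 to 0.11 in NIL-Bph6-RNAi. With 3 arrays a group these values cannot decide whether the arrays were paired.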
